A study of Mus musculus with 12 samples.

Results

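The genes described here are 48 mouse genes of nucleolar ribosome biogenesis, chosen by symbol from a list that covers transcription of ribosomal RNA, its processing and the assembly of ribosomal subunits. All 48 were found among the 55401 genes of the count table and all 48 passed the filter on low counts, so each one is accounted for below. They were measured by RNA sequencing of total RNA in Th17 cells, the IL-17-producing class of CD4+ helper T cells, differentiated from naive T cells of wild-type mouse lymph nodes. The study compared 4 groups of 3 libraries each: cells given Kira8 together with Stattic (Kira8+Stattic), cells given Kira8, cells given Stattic, and cells given no inhibitor (None), with inhibitors applied for 4 h. Kira8 inhibits the kinase and, through it, the RNase of IRE1alpha, the endoplasmic reticulum stress sensor that splices Xbp1 mRNA, and Stattic was made to block the SH2 domain of STAT3, the transcription factor downstream of IL-6 and IL-23 receptors. The labels do not say whether None cells received solvent, nor give doses, mouse age or whether replicates came from separate animals or cultures, so p-values measure the spread between these libraries, which may be technical.

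Ribosomes are built in the nucleolus. RNA polymerase I transcribes the long precursor of ribosomal RNA, small nucleolar ribonucleoproteins (snoRNPs) guide its methylation and pseudouridylation, and assembly factors cut and fold it into the precursors of the small and large subunits. In activated T cells this programme supports growth and division, and many of its genes are known targets of the transcription factor Myc, which binds the E-box CACGTG.

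A pair of libraries stood apart before any test. Kira8 replicate 2 held 19.8 M counts with 61.55% of them on mitochondrial genes, and Stattic replicate 2 held 9.3 M counts with 10.66% mitochondrial and 19.1% on the repeat-rich gene model Gm10800. The other 10 libraries held 51.7 to 85.9 M counts, 3.379 to 5.221% mitochondrial, and at most 0.008259% on Gm10800. In the pair that stood apart the median member had 143 (Kira8) and 142.5 (Stattic) counts, against medians of 2560.5 to 12437.5 in the others. The other 10 differed in the heat-shock genes Hspa1a and Hspa1b. These held 2.182 to 4.934% of counts in Kira8+Stattic and 2.231 to 3.745% in Stattic. They held 0.02498 to 0.05212% in Kira8 and 0.001033 to 0.01399% in None. Results below rest on the 10 libraries, with 2 for Kira8 and 2 for Stattic, and each main count is also given with all 12. The 10 Th17 markers examined (such as Il17a, Il17f and Cd4) were all detected in each of these 10 libraries.

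The upstream sequences below are shown because they belong to members whose changes anchor the account: Grwd1 with the largest fall after Stattic, Nop2 and Rrn3 with an E-box upstream of the start, and Polr1c, which did not fall. Nop2 and Rrn3 were picked after their values were seen. Each run is the 250 bases before the start of transcription in the RefSeq promoter table (build GRCm38.p6), 5′ to 3′ on the gene's strand. Capitals mark an E-box (CACGTG) or an ETS-type motif (CCGGAAGT, searched on both strands) that lies wholly within the run. In the GENCODE annotation Grwd1 starts further upstream, so much of its run, with the ETS-type motif, lies inside that gene model.
Grwd1 upstream (chr7:45830790-45831039, minus strand): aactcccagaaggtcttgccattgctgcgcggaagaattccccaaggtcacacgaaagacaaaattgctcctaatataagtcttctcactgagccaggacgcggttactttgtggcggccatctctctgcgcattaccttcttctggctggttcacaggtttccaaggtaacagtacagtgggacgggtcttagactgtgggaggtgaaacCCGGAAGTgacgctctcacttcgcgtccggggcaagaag
Nop2 upstream (chr6:125131633-125131882, plus strand): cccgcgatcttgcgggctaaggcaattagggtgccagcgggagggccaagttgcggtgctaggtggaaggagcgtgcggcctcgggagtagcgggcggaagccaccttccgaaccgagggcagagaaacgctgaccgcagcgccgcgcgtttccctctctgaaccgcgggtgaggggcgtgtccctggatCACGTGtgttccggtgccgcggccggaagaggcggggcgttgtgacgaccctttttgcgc
Rrn3 upstream (chr16:13780449-13780698, plus strand): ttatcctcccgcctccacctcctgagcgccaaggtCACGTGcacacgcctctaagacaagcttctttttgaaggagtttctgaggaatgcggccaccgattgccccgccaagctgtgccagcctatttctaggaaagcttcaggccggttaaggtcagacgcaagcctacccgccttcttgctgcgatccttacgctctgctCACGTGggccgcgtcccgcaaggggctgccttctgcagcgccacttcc
Polr1c upstream (chr17:46248046-46248295, minus strand): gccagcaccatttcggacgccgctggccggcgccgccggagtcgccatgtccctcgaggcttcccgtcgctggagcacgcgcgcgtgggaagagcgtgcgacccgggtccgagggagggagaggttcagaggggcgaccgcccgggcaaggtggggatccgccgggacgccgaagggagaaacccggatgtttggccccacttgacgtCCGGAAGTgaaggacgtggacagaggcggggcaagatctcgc

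E-boxes just after the RefSeq start were found in 7 members. For Wdr43 the GENCODE start lies further upstream, so its E-box is deeper inside that gene model. Each line gives the 30 bases around the E-box, which is in capitals; these are shown so that the flanks can be compared with those of Nop2 and Rrn3 above. All but Grwd1 and Mybbp1a were added after their values were seen.
Grwd1 (chr7:45830740-45830769, minus strand): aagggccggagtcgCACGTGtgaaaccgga
Mybbp1a (chr11:72441347-72441376, plus strand): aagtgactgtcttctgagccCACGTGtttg
Utp20 (chr10:88826765-88826794, minus strand): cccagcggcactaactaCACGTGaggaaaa
Wdr43 (chr17:71616220-71616249, plus strand): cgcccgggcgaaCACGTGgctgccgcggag
Tsr1 (chr11:74898092-74898121, plus strand): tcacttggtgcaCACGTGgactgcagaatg
Ltv1 (chr10:13193092-13193121, minus strand): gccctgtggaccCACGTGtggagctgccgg
Pes1 (chr11:3963965-3963994, plus strand): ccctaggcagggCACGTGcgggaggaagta

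In all, 42 of the 48 members had a RefSeq promoter window, which runs from 250 bases before the start to 50 after it. CACGTG stood in 9 of these 42 (21.4%), against 9.5% of the 12506 tested genes with a window and 7.24% of all 27025 genes in the table. Rrn3 held a pair of them, and no other member held more than 1. CCGGAAGT stood in 14 of 42 (33.3%), against 7.35% of tested genes, and Polr1c was among the 14. The STAT-type motif TTCNNNGAA stood in 4 members (9.52%, against 7.05% of tested genes), while a heat-shock-factor type motif (GAA and TTC and GAA, each parted by 2 bases of any kind) and the NRF1 palindrome (GCGCA followed by TGCGC) were in 0 members, against 0.4% and 1.81% of tested genes. Both strands were searched for every motif and no motifs overlapped each other. A match describes letters in a window and not a bound site. The 9 members with an E-box had a median log2 change of -2.18 in Kira8+Stattic, -1.31 in Kira8 and -2.13 in Stattic cells against None. The 33 members with a window but no E-box had medians of -1.51, -1.31 and -1.72 in the same order. These medians were set side by side without a test.

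The whole programme was low in every inhibited library. Summed over the 48 members, TMM-scaled CPM (counts relative to library size, scaled by the trimmed mean of M values) were 6081, 5772 and 6649 in Kira8+Stattic, 5957 and 6384 in Kira8, 6562 and 5795 in Stattic, and 11510, 15780 and 13340 in None. The inhibited groups overlapped each other and none overlapped None. On the scale of 12 libraries, the sums were 2050 in Kira8 replicate 2 and 1723 in Stattic replicate 2, lower than any other library.

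**Figure D1:**
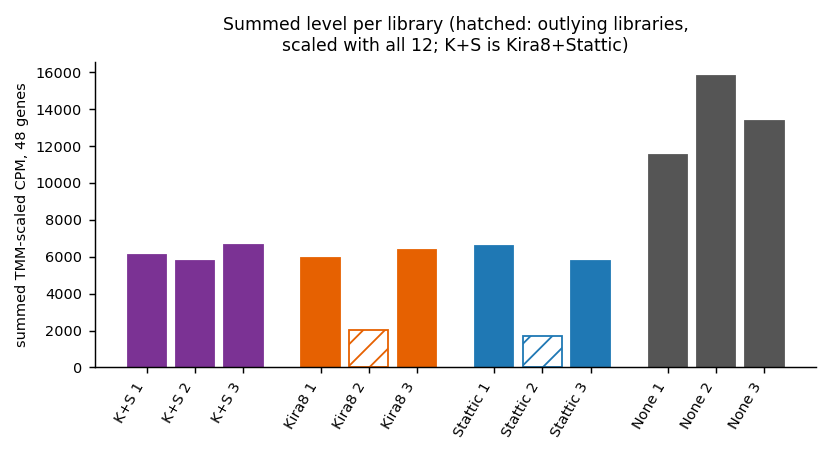
Summed TMM-scaled CPM of the 48 members (vertical axis) in each of the 12 libraries, with Kira8+Stattic, Kira8, Stattic and None from left to right and Kira8+Stattic written K+S. Hatched bars are Kira8 replicate 2 (2050) and Stattic replicate 2 (1723), scaled with all 12 libraries; the 3 None bars, 11510 to 15780, stand above all others.

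Against None, 46 of 48 members fell in Kira8+Stattic cells, 46 in Kira8 cells and 46 in Stattic cells (edgeR quasi-likelihood test, Benjamini-Hochberg adjusted p under 0.05 over 21239 genes). In each comparison 0 members rose, by the adjusted test or at an unadjusted p under 0.05, and DESeq2 and limma voom also gave 0. Of all genes tested, 20.0% were lower and 20.8% higher in Kira8+Stattic, 9.59% and 9.70% in Kira8, and 18.9% and 20.1% in Stattic. The median member's log2 change was -1.70 (3.25-fold lower) in Kira8+Stattic, -1.31 (2.48-fold) in Kira8 and -1.78 (3.44-fold) in Stattic, where the medians of all genes tested were 0.09, 0 and 0.08. The 3 comparisons share the None libraries and are not independent of each other.

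These counts depend on the libraries that stand apart. With all 12 libraries in edgeR, 6 members were called lower in Kira8+Stattic (0.138% of genes), 0 in Kira8 (0% of genes) and 10 in Stattic (0.205%). The common dispersion was 0.143 with 10 libraries and 1.01 with 12. Without Kira8 replicate 1 the Kira8 count was 37, with the calls of Nop14, Ncl, Wdr74, Utp20, Utp14a, Heatr1, Polr1a, Rrn3 and Tsr1 lost. Without Kira8 replicate 3 it was 40, with Nop14, Wdr74, Utp20, Utp14a, Heatr1 and Rrn3 lost. Without Stattic replicate 3 the Stattic count was 42, with Ncl, Npm3, Nhp2 and Utp14a lost. When limma voom weighted all 12 libraries by their quality, 46, 45 and 46 members were called lower (22.5%, 11.6% and 17.4% of genes). In bulk RNA, fewer cells of a type and less RNA per cell cannot be told apart.

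Summed markers of B cells and of CD8 T and NK cells were lower in every inhibited group. Myeloid sums overlapped None in Kira8+Stattic and in Kira8 and lay below it in Stattic. The 12 B cell markers summed to 24.31 to 57.54 CPM in Kira8+Stattic, 62.87 to 73.03 in Kira8, 21.53 to 36.64 in Stattic and 170.6 to 199.4 in None, and 8, 6 and 10 of the 12 were called lower. The 12 CD8 T and NK markers summed to 231.6 to 392.9, 227.9 to 260.7, 631.4 to 774.6 and 1325 to 2234 CPM in the same order. Gzmb alone made up 778 to 1410 CPM of the None sums, and the NK receptor gene Ncr1 was at 0 in 9 of 10 libraries. Of the 11 tested, 8 were lower and 1 higher in Kira8+Stattic, 9 lower in Kira8, and 4 lower and 1 higher in Stattic. The 10 myeloid markers summed to 33.62 to 120.2, 92.57 to 95.6, 43.98 to 54.92 and 62.23 to 93.94 CPM, with Clec9a at 0 in 8 of 10 libraries. The 10 Th17 markers summed to 1576 to 1646, 1408 to 1503, 1621 to 1700 and 1658 to 3775 CPM. These sums hide unlike members. Il17a had 258 to 1440 CPM in None and 130 to 171 in the inhibited libraries used, and Il17f 227 to 1010 and 138 to 215. Rora went the other way, with 41.7 to 126 and 210 to 353, while Cd4 had 364 to 429 and 356 to 449. The part of these shifts in the members' fall was not tested.

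**Figure D2:**
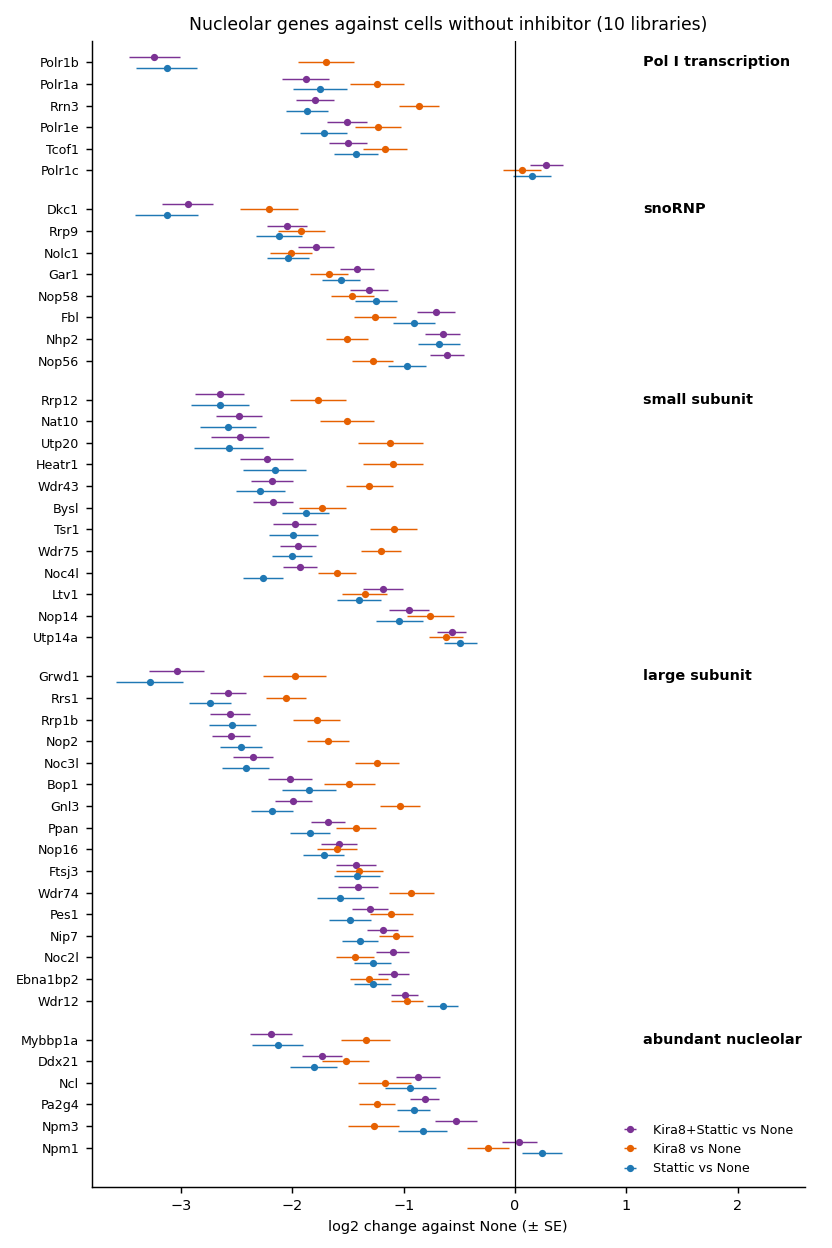
Log2 change of each member against None (horizontal axis, ± SE) in Kira8+Stattic, Kira8 and Stattic cells, by role, from the fit of 10 libraries; the vertical line marks no change. Polr1c (0.28, 0.06 and 0.15) and Npm1 (0.04, -0.24 and 0.24) sit at the line, and Polr1b, Dkc1 and Grwd1 lie farthest to the left in Kira8+Stattic and in Stattic, while Dkc1, Rrs1 and Nolc1 do in Kira8.

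Of the 6 members for transcription by RNA polymerase I, 5 fell in each comparison with None, with medians of -1.65 in Kira8+Stattic, -1.20 in Kira8 and -1.74 in Stattic. Polr1b (chromosome 2, 129100995 to 129126594, plus strand, as in GENCODE for mm10) encodes a large catalytic subunit of the enzyme. It had 27.8, 19.7 and 17.8 CPM in Kira8+Stattic, 60.3 and 66.8 in Kira8, 27.4 and 19.5 in Stattic, and 160, 241 and 217 in None. The None libraries were highest, the Kira8 libraries lay between, and the Stattic and combined libraries overlapped. Polr1b fell by 3.24 ± 0.23 (SE) on the log2 scale in Kira8+Stattic (adjusted p = 1.23e-06), by 1.70 ± 0.25 in Kira8 (0.000732) and by 3.13 ± 0.27 in Stattic (6.31e-06, edgeR). Polr1a (chromosome 6, 71909053 to 71984935, plus strand), its largest subunit, had 68.5, 61.9 and 57.4 CPM in Kira8+Stattic, 89.5 and 106 in Kira8, 66.9 and 70 in Stattic, and 151, 255 and 287 in None. Its fall was 3.69-fold, 2.36-fold and 3.37-fold in that order. Rrn3, the factor that brings the polymerase to the ribosomal DNA promoter, fell 3.47-fold in Kira8+Stattic, 1.82-fold in Kira8 and 3.65-fold in Stattic. The subunit gene Polr1e fell 2.85-, 2.35- and 3.29-fold, and Tcof1, whose product treacle acts in ribosomal DNA transcription, fell 2.82-, 2.26- and 2.70-fold.

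The member of this role that did not fall was Polr1c (chromosome 17, 46243920 to 46248054, minus strand), a subunit shared by RNA polymerases I and III. It had 64.1, 57.9 and 66.6 CPM in Kira8+Stattic, 54.7 and 53.4 in Kira8, 63.7 and 50.8 in Stattic, and 60.5, 48.9 and 45.5 in None. The inhibited libraries lay within or just above the range of None. Its log2 change was 0.28 ± 0.15 in Kira8+Stattic (95% interval -0.04 to 0.61, adjusted p = 0.155), 0.06 ± 0.17 in Kira8 (-0.30 to 0.43, 0.848) and 0.15 ± 0.17 in Stattic (-0.22 to 0.51, 0.513, edgeR). These intervals leave out a fall of the size seen for Polr1b, Polr1a or Rrn3. Without None replicate 1, Polr1c was called higher in Kira8+Stattic by 0.41 (adjusted p = 0.0391, edgeR).

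All 8 snoRNP members fell in each comparison, with medians of -1.36 in Kira8+Stattic, -1.59 in Kira8 and -1.40 in Stattic. Dkc1 (chromosome X, 75095854 to 75109777, plus strand) encodes the pseudouridine synthase of H/ACA particles. It had 38.4, 22.9 and 28.7 CPM in Kira8+Stattic, 46 and 53.5 in Kira8, 27.2 and 25.5 in Stattic, and 203, 302 and 185 in None. It was 7.67-fold, 4.62-fold and 8.74-fold lower than in None (adjusted p = 2.45e-06, 0.000246 and 7.81e-06, edgeR). Its H/ACA partners had smaller folds: Gar1 fell 2.67-, 3.19- and 2.94-fold, and Nhp2 fell 1.57-, 2.86- and 1.61-fold. Rrp9 (chromosome 9, 106475963 to 106485424, plus strand), a protein of the U3 particle, had 27.9, 28.9 and 30.1 CPM in Kira8+Stattic, 29.1 and 34.5 in Kira8, 33.8 and 21.6 in Stattic, and 118, 138 and 104 in None. The inhibited libraries of Rrp9 overlapped each other and lay below every None library. Nolc1, a chaperone of snoRNPs, had 122, 100 and 103 CPM in Kira8+Stattic, 86.5 and 101 in Kira8, 91 and 91.9 in Stattic, and 339, 457 and 333 in None.

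Nop56 and Fbl, of the box C/D core, had their smallest fold in the combination. Nop56 had 365, 328 and 380 CPM in Kira8+Stattic, 210 and 239 in Kira8, 260 and 297 in Stattic, and 472, 634 and 529 in None, so the Kira8 libraries were the lowest. The rRNA methyltransferase gene Fbl had 115, 89.9 and 127, 73.4 and 77, 109 and 82.7, and 192, 192 and 158 CPM in the same order, again with Kira8 lowest. Their log2 changes against None were -0.61 ± 0.15 for Nop56 and -0.71 ± 0.17 for Fbl in Kira8+Stattic, and -1.28 ± 0.18 and -1.26 ± 0.19 in Kira8. Nop58, their partner, differed from this with -1.31 ± 0.17 in Kira8+Stattic and -1.46 ± 0.19 in Kira8.

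All 12 members of the small-subunit processome and its assembly fell in each comparison, and here Stattic and the combination went furthest: the medians were -2.07 in Kira8+Stattic, -1.26 in Kira8 and -2.08 in Stattic. Rrp12 (chromosome 19, 41862851 to 41896173, minus strand), known in yeast for export of pre-ribosomes, had 29.9, 21.6 and 19.8 CPM in Kira8+Stattic, 39.2 and 47.9 in Kira8, 27.3 and 20 in Stattic, and 112, 173 and 161 in None. Nat10 (chromosome 2, 103721256 to 103761270, minus strand), the RNA cytidine acetyltransferase, had 40.1, 27.7 and 29.3 CPM in Kira8+Stattic, 63.4 and 63.4 in Kira8, 33.9 and 26.3 in Stattic, and 130, 196 and 213 in None. For both genes the Kira8 libraries stood above every other inhibited library and below every None library. Utp20 had 42.4, 32.9 and 31.5 CPM in Kira8+Stattic, 78.7 and 103 in Kira8, 33.7 and 32.7 in Stattic, and 114, 241 and 238 in None. Heatr1, the counterpart of yeast Utp10, had 66.8, 64.8 and 68.1 CPM in Kira8+Stattic, 138 and 153 in Kira8, 68.9 and 70.9 in Stattic, and 180, 389 and 368 in None. For Utp20 and Heatr1 the lowest None library lay close to the Kira8 libraries. The Kira8 call of Utp20 was lost without Kira8 replicate 1 (adjusted p = 0.164) and without Kira8 replicate 3 (0.0637, edgeR). The smallest falls of this role were those of Utp14a, 1.48-fold in Kira8+Stattic, 1.54-fold in Kira8 and 1.40-fold in Stattic, and of Nop14, 1.93-, 1.69- and 2.05-fold.

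All 16 large-subunit members fell in each comparison, with medians of -1.63 in Kira8+Stattic, -1.41 in Kira8 and -1.78 in Stattic. Grwd1 (chromosome 7, 45825223 to 45830944, minus strand), a histone-binding WD-repeat protein of pre-ribosomes, had 14.7, 9.06 and 10.6 CPM in Kira8+Stattic, 20.8 and 26.7 in Kira8, 12.7 and 6.69 in Stattic, and 87.9, 101 and 93.3 in None. It was 8.25-fold, 3.96-fold and 9.73-fold lower than in None, the largest fold among the members in Stattic. Rrs1 (chromosome 1, 9545408 to 9547455, plus strand), which in yeast brings the 5S particle into the large subunit, had 23, 18.5 and 20.1 CPM in Kira8+Stattic, 26.7 and 32.2 in Kira8, 19.3 and 17.3 in Stattic, and 113, 141 and 115 in None. Its adjusted p was the smallest of the members in all 3 comparisons: 6.12e-07, 4.95e-05 and 1.82e-06 (edgeR). Nop2, an rRNA methyltransferase, fell 5.86-fold in Kira8+Stattic, 3.22-fold in Kira8 and 5.51-fold in Stattic, and Noc3l fell 5.09-, 2.37- and 5.35-fold. The 3 genes of the PeBoW complex, which processes large-subunit rRNA, had unlike folds: Bop1 fell 4.05-, 2.81- and 3.60-fold, Pes1 2.46-, 2.17- and 2.78-fold, and Wdr12 1.99-, 1.96- and 1.57-fold.

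Of the 6 abundant nucleolar proteins, 5 fell in each comparison, with medians of -0.84 in Kira8+Stattic, -1.26 in Kira8 and -0.93 in Stattic. Mybbp1a (chromosome 11, 72441355 to 72451768, plus strand), a Myb-binding nucleolar protein, had 188, 143 and 144 CPM in Kira8+Stattic, 260 and 310 in Kira8, 182 and 146 in Stattic, and 556, 792 and 813 in None. The RNA helicase gene Ddx21 (chromosome 10, 62580251 to 62602281, minus strand) had 227, 203 and 249 CPM in Kira8+Stattic, 239 and 282 in Kira8, 209 and 217 in Stattic, and 591, 935 and 718 in None. Neither gene's inhibited libraries reached its None libraries. Ncl, nucleolin, fell 1.83-, 2.25- and 1.91-fold, and Pa2g4 fell 1.75-, 2.36- and 1.88-fold. Npm3, a relative of nucleophosmin, had 40.4, 30 and 43.2 CPM in Kira8+Stattic, 24.3 and 20.9 in Kira8, 35.7 and 25.8 in Stattic, and 63.5, 56.7 and 44 in None. Its log2 change in Kira8+Stattic, -0.53 ± 0.19, was at the edge of the call (adjusted p = 0.0459, edgeR) and was lost, for example, without Kira8+Stattic replicate 2 (0.18) or None replicate 1 (0.126).

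Npm1 (chromosome 11, 33152287 to 33163206, minus strand) was the other gene that did not fall. It encodes nucleophosmin, the chaperone that forms the outer phase of the nucleolus, and was the most abundant member at 648 CPM per kb of exon in None, against a median of 45.5 CPM per kb over the 48. It had 1520, 1790 and 2000 CPM in Kira8+Stattic, 1500 and 1420 in Kira8, 2290 and 1780 in Stattic, and 1500, 1870 and 1810 in None. The combined and Stattic libraries overlapped None, and the Kira8 libraries lay at or just under its lowest library. Its log2 change was 0.04 ± 0.16 in Kira8+Stattic (95% interval -0.32 to 0.39, adjusted p = 0.887), -0.24 ± 0.19 in Kira8 (-0.65 to 0.16, 0.407) and 0.24 ± 0.18 in Stattic (-0.16 to 0.64, 0.332, edgeR). Ncl at 195 and Pa2g4 at 184 CPM per kb in None, next in that order of levels, both fell.

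**Figure D3:**
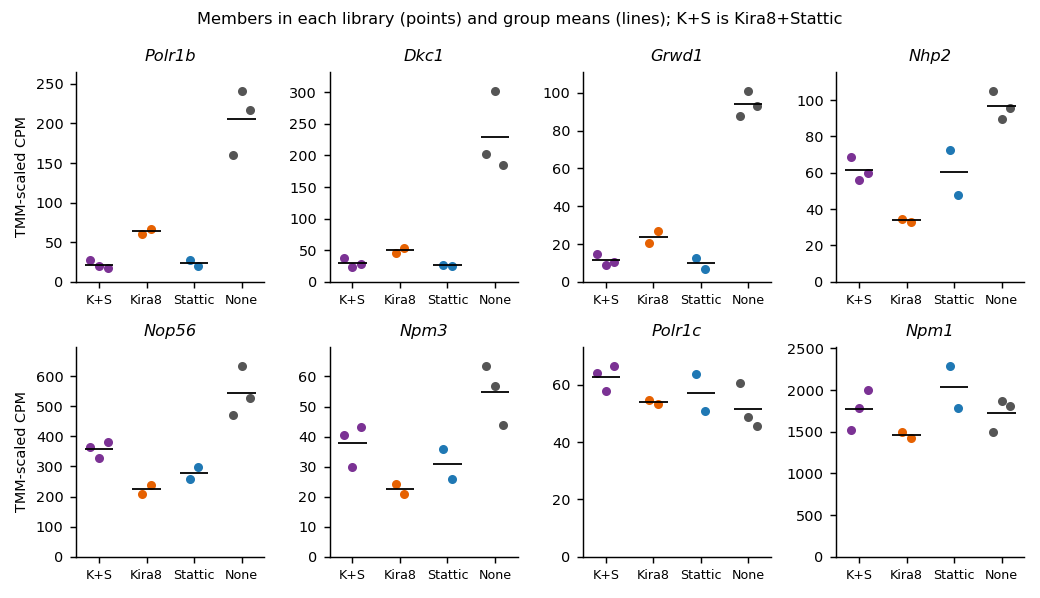
TMM-scaled CPM (vertical axes, each from 0) of 8 members in each of the 10 libraries, points, with group means, lines; Kira8+Stattic is written K+S. Polr1b, Dkc1 and Grwd1 are lowest in Stattic and the combination, Nhp2, Nop56 and Npm3 are lowest in Kira8, and the inhibited libraries of Polr1c and Npm1 lie at or near the levels of None.

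How far each inhibitor alone went towards the level of the combination was read from the medians. The median member kept 30.7% of its None level in Kira8+Stattic, 40.2% in Kira8 and 29.0% in Stattic. The median log2 change of Kira8 alone was 77.1% of that of the combination, and that of Stattic alone was 104.8%. On the CPM scale, the share of the combination's fall reached by the median member was 89.9% with Kira8 and 102.1% with Stattic. By role, the ratio of median log2 changes for Kira8 was 60.5% for small-subunit genes, 72.7% for polymerase I genes, 86.9% for large-subunit genes, 116.8% for snoRNP genes and 149.5% for abundant nucleolar genes. For Stattic it stayed between 100.2% and 110.1% in the 5 roles. The roles lay closer together on the CPM scale. There the median member's share with Kira8 was 81.6%, 78.1%, 91%, 108.1% and 108% in the same order of roles. With Stattic it was between 98.3% and 107.3%. These ratios share the None libraries and carry no test; the tests are those of the groups against each other.

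No member passed the test when Kira8 was added to Stattic. In Kira8+Stattic against Stattic, 0 of 48 members were called in either direction (edgeR; 0.00471% of all genes lower and 0.00942% higher), and DESeq2 (0.104% of genes lower, 0.137% higher) and limma voom (0.00471% lower, 0% higher) also called 0. At an unadjusted p under 0.05 there was 1, Wdr12 (-0.35 ± 0.14, adjusted p = 1, edgeR). With all 12 libraries edgeR also called 0 lower and 0 higher (0% of genes), and 0 at an unadjusted p under 0.05. The median log2 change was 0.09, with members between -0.35 and 0.36. This median was 0 without Stattic replicate 3, 0.21 without Stattic replicate 1, 0.16 without Kira8+Stattic replicate 2 and 0.42 with all 12 libraries. The 95% intervals of the members ran from -0.71 (Bysl) to 0.82 (Grwd1), so changes of up to 1.64-fold lower or 1.77-fold higher remain within them.

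Kira8+Stattic was also set against Kira8, to show what adding Stattic did. In Kira8+Stattic against Kira8, 18 members were lower (37.5%, where 16.0% of all genes were), 5 were higher (14.7% of all genes, a larger share than among the members) and 25 were not called (edgeR). The median log2 change was -0.27, against 0.12 over all genes tested, and -0.04 with all 12 libraries. The largest falls were those of Polr1b, -1.55 ± 0.23 (adjusted p = 0.000458), Utp20, -1.35 ± 0.28 (0.00321), and Heatr1, -1.13 ± 0.25 (0.00556). Noc3l, Grwd1, Nat10, Gnl3 and Rrn3 followed at -1.10, -1.06, -0.97, -0.95 and -0.93. The 5 higher members were Nhp2 (0.86 ± 0.19, adjusted p = 0.00484), Npm3 (0.75 ± 0.22, 0.024), Nop56 (0.67 ± 0.17, 0.0114), Fbl (0.56 ± 0.19, 0.0423) and Pa2g4 (0.43 ± 0.15, 0.0478), of which 3 belong to snoRNPs. Without Kira8 replicate 3, only 6 lower and 0 higher calls remained, and with all 12 libraries 0 and 0. A test against a 1.5-fold change called 3 lower and 0 higher. The higher calls also went to 1 without Kira8 replicate 1 and to 2 without Kira8+Stattic replicate 1 or 3.

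The inhibitors were also compared directly, with the same 2 Kira8 libraries as in Kira8+Stattic against Kira8, so these comparisons are not independent. In Stattic against Kira8, 19 members were lower (15.1% of all genes), 1 was higher (13.7% of all genes) and 28 were not called (edgeR). The median log2 change was -0.34, against 0.09 over all genes; it was -0.53 without Stattic replicate 1 and -0.21 without Stattic replicate 3. Lower calls took 8 of 12 small-subunit members, 7 of 16 large-subunit members, 2 of 6 polymerase I members (Polr1b and Rrn3), 1 of 8 snoRNP members (Dkc1) and 1 of 6 abundant proteins (Mybbp1a). Utp20 had the largest difference, -1.45 ± 0.31 (adjusted p = 0.0049), followed by Polr1b at -1.44 ± 0.26 (0.00187), Grwd1 at -1.30 ± 0.29 (0.00651), Noc3l at -1.18 ± 0.22 (0.00198) and Gnl3, the nucleolar GTPase nucleostemin, at -1.15 ± 0.20 (0.00139, edgeR). The member higher in Stattic was Nhp2, with 72.7 and 47.9 CPM in Stattic, 34.7 and 33.1 in Kira8 (0.83 ± 0.20, adjusted p = 0.00959, edgeR). Without Kira8 replicate 3 there were 6 lower calls, without Stattic replicate 3 there were 7, and with all 12 libraries 0. The Nhp2 call was lost without Kira8 replicate 1, Kira8 replicate 3 or Stattic replicate 1. By group mean, Kira8 was the lowest group for 12 members and None for Polr1c alone. Stattic or Kira8+Stattic was lowest for the rest, and no member was called between those groups. This order carries no test and was not counted over all genes.

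**Figure D4:**
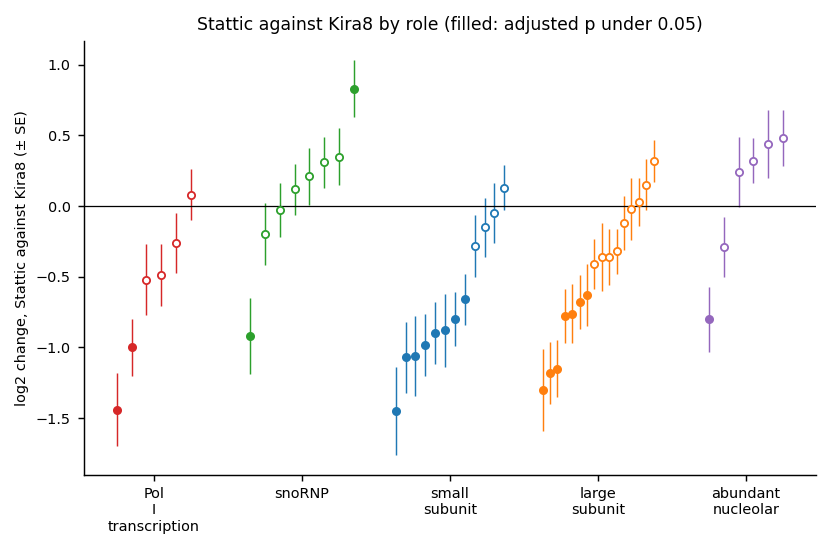
Log2 change in Stattic against Kira8 (vertical axis, ± SE) of each member, sorted within its role (horizontal axis); filled points have an adjusted p under 0.05. The 19 filled points below 0 include 8 small-subunit members, and the 1 filled point above 0 is Nhp2 at 0.83.

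Most members fell less in the combination than the sum of the single changes. The test of this is the interaction, the Kira8 change with Stattic present minus the Kira8 change without it. It was positive and called for 40 of 48 members (4.55% of all genes were called higher), and 0 were called lower (3.97% of all genes), also 0 lower at an unadjusted p under 0.05 (edgeR). DESeq2 (6.94% of genes) and limma voom (4.39%) likewise called 0 lower. The median was 1.43, against 0.01 over all genes tested. As Kira8+Stattic and Stattic differed little, the members' interaction was largely their Kira8 fall with its sign turned. It reuses the Kira8 and None libraries of that fall and is not independent of it. Rrs1 had the smallest p: with Stattic present Kira8 changed it by 0.17, without Stattic by -2.06, a difference of 2.22 ± 0.25 (adjusted p = 0.000935). Nolc1 (0.25 and -2.01, difference 2.25 ± 0.26, adjusted p = 0.0011) and Noc4l (0.33 and -1.60, difference 1.93 ± 0.24, 0.00178, edgeR) followed. Noc4l had 42.9, 38.7 and 37.3 CPM in Kira8+Stattic, 48.9 and 50.7 in Kira8, 37.1 and 25.7 in Stattic, and 152, 146 and 154 in None. The 8 members with no call in edgeR were Polr1a, Heatr1, Nop14, Utp14a, Utp20, Wdr12 and the non-falling Polr1c and Npm1. The count of called interactions was 20 without Kira8 replicate 1, 23 without Kira8 replicate 3, 24 without Stattic replicate 3 and 0 with all 12 libraries.

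**Figure D5:**
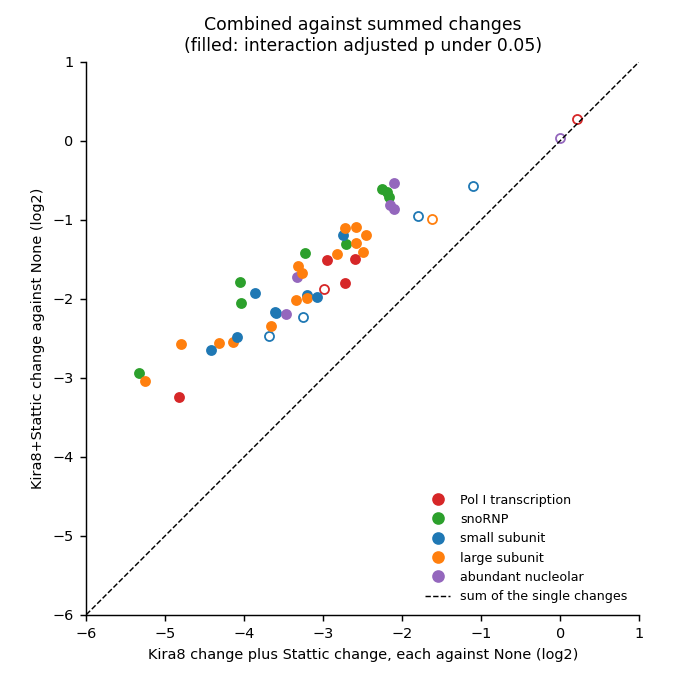
Observed log2 change of each member in Kira8+Stattic against None (vertical axis) against the sum of its Kira8 and Stattic changes (horizontal axis), coloured by role; filled points have a called interaction and the dashed line marks equality. The 40 filled points lie above the line, and Polr1c and Npm1 lie near it at about 0.

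Other genes of the same pathway moved alike but with more exceptions. Of 96 further ribosome biogenesis genes, 74 fell and 5 rose in Kira8+Stattic, 71 fell and 2 rose in Kira8, and 73 fell and 5 rose in Stattic, with median log2 changes of -1.20, -0.88 and -1.26. Pwp2, a processome protein, fell 8.12-, 3.04- and 8.18-fold, Nifk 4.32-, 2.85- and 3.89-fold, Nol6 3.73-, 2.37- and 3.75-fold and Dhx37 5.48-, 1.99- and 7.32-fold in that order. The genes that rose in Kira8+Stattic were Zfp622 (1.12 ± 0.16, adjusted p = 0.000138), Sbds (0.93 ± 0.14, 0.00026), Nop53 (0.67 ± 0.16, 0.00509), Rrp36 (0.46 ± 0.16, 0.0376) and Nsa2 (0.43 ± 0.15, 0.0405, edgeR). Zfp622 and Sbds are known for late, cytoplasmic steps of large-subunit maturation. In Kira8 the 2 that rose were the helicase genes Ddx5 (0.61 ± 0.16) and Ddx52 (0.50 ± 0.15).

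Of 15 further polymerase I subunits and factors, 6 fell and 1 rose in Kira8+Stattic, 6 fell and 1 rose in Kira8, and 7 fell and 1 rose in Stattic. Polr1g fell 4.94-, 4.50- and 5.10-fold, Polr1f 3.12-, 1.75- and 2.83-fold and Ubtf, the promoter-binding factor UBF, 1.66-, 1.80- and 1.61-fold. Taf1c fell 2.76-fold in Kira8+Stattic and 3.00-fold in Stattic, with a change of -0.44 ± 0.17 in Kira8 that was not called (adjusted p = 0.0979, edgeR). Polr1d, like Polr1c a subunit shared with RNA polymerase III, rose by 0.54 ± 0.15 in Kira8+Stattic (adjusted p = 0.0131) and by 0.58 ± 0.17 in Stattic (0.0161), with -0.35 ± 0.17 in Kira8 (0.181, edgeR). Ttf1, which ends ribosomal DNA transcription, rose by 0.62 ± 0.17 in Kira8 and fell by 0.55 ± 0.16 in Kira8+Stattic. Myc itself fell 3.81-fold in Kira8+Stattic (-1.93 ± 0.17, adjusted p = 5.47e-06), 2.78-fold in Kira8 (0.000438) and 2.80-fold in Stattic (0.000123, edgeR).

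The members lie on 19 chromosomes. For 20 of the 48, exons overlap a gene on the opposite strand in GENCODE, and reads of such pairs cannot be told apart where counting ignored strand, which is not given in the sources used here. None overlapped another gene's exons on the same strand. The loci of 8 members hold 23 annotated snoRNAs, among them 5 in Nop56, 4 in Nop58 and 3 each in Ncl, Wdr43 and Gnl3.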

How the data were processed

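The authors deposited a table of unnormalized read counts, with 55401 Ensembl genes and 12 libraries. The build is mm10 per the submitters' processing notes; the sources used here do not give aligner, counter, annotation or strand use. Symbols were matched for 55141 genes, and gene positions come from GENCODE for mm10. Groups and replicate numbers come from the titles.

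The counts were filtered with filterByExpr at its defaults (21239 genes kept), TMM-scaled, and tested by quasi-likelihood in edgeR 4.0.16 (R 4.3.3) in 1 fit of 4 groups without Kira8 replicate 2 and Stattic replicate 2. For each of 7 contrasts, p-values were adjusted over all genes (Benjamini-Hochberg) and called under 0.05. SE is the log2 change divided by the square root of F. Total counts were 51.7 to 85.9 M in these 10 libraries, and the lowest count of a member was 347. Alternatives used all 12 libraries, limma 3.58.1, DESeq2 1.42.0, other scalings and filters, a test against a 1.5-fold change, a replicate block, and each library left out. The fit was checked on simulated counts for Stattic against None with 10 libraries. It recovered 30 of 100 genes changed by 1 on the log2 scale and 84 of 100 changed by 2, with 7 false calls. A gene that is not called may thus still have changed. Within each group, no libraries were copies of each other.

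The members, lists and comparisons, and the choice of 10 libraries, were made with earlier results of these data known. Values in every library are given for the 2 members per role with the largest fall in Kira8+Stattic, for members not called lower, for the smallest interaction p-values and for the largest differences between inhibited groups. Of the 40 members with a called interaction some are given by their tests only. Nop56, Fbl, Npm3 and Nhp2 and other members named for their size of change were picked after their values were seen. Of further lists, up to 4 genes with the smallest adjusted p in Kira8+Stattic and those that rose are named. A cell type marker of the original list is not reported here, and sums were taken without it.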

Additional observations from a re-analysis of the deposited data

Results flagged for a closer look

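The Kira8 change differed between cells with and without Stattic for 40 of the 48 members, by the interaction term of the edgeR fit of 10 libraries (adjusted p under 0.05 over all genes). In all 40 the Kira8 change was less negative with Stattic present. These interactions reuse the Kira8 and None libraries of the Kira8 falls and are not independent of those falls. The values below are the interaction in log2 units, that is, what Kira8 did beside Stattic less what it did alone.

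Among polymerase I genes it was 1.59 for Polr1b, 1.44 for Polr1e, 1.11 for Tcof1 and 0.94 for Rrn3. Adjusted p ran from 0.0121 to 0.0443 in this role (edgeR).

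Among snoRNP genes it was 2.40 for Dkc1, 2.25 for Nolc1, 1.98 for Rrp9, 1.81 for Gar1, 1.64 for Nop56 and 1.54 for Nhp2. It was 1.47 for Fbl and 1.39 for Nop58. Adjusted p ran from 0.0011 to 0.00946 in this role (edgeR).

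Among small-subunit genes it was 1.93 for Noc4l, 1.78 for Rrp12, 1.61 for Nat10, 1.56 for Ltv1, 1.43 for Bysl and 1.42 for Wdr43. It was 1.25 for Wdr75 and 1.11 for Tsr1. Adjusted p ran from 0.00178 to 0.0343 in this role (edgeR).

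Among large-subunit genes it was 2.22 for Rrs1, 2.22 for Grwd1, 1.76 for Rrp1b, 1.75 for Nop16, 1.62 for Noc2l and 1.60 for Nop2. It was 1.59 for Ppan, 1.5 for Ebna1bp2, 1.40 for Ftsj3, 1.32 for Bop1, 1.32 for Noc3l and 1.29 for Pes1. It was 1.27 for Nip7, 1.23 for Gnl3 and 1.08 for Wdr74. Adjusted p ran from 0.000935 to 0.0361 in this role (edgeR).

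Among abundant nucleolar genes it was 1.61 for Ddx21, 1.58 for Npm3, 1.34 for Pa2g4, 1.29 for Mybbp1a and 1.24 for Ncl. Adjusted p ran from 0.00465 to 0.0378 in this role (edgeR).

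With all 12 libraries in the fit, 0 of the 40 kept an adjusted p under 0.05. Left-out libraries moved the count between 20 and 45.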

How the results depend on the processing

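The falls against None kept their direction under every alternative run, and their counts stayed within 1.5 times of 46 in Kira8+Stattic, Kira8 and Stattic, except with all 12 libraries in edgeR, which gave 6, 0 and 10. All 12 libraries also gave 0 lower and 0 higher in Kira8+Stattic against Kira8, 0 and 0 in Stattic against Kira8, and 0 called interactions. Against a 1.5-fold change there were 3 lower and 0 higher in Kira8+Stattic against Kira8, 5 lower and 0 higher in Stattic against Kira8, and 21 interactions. Higher calls in Kira8+Stattic against Kira8 were 2 with library size alone and 3 with no filter. Higher calls in Stattic against Kira8 were 4 with DESeq2 and 2 with the filter of more than 1 CPM in 3 libraries. The cause of these differences was not tested.

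With each of the 10 libraries left out in turn, lower calls against None ran from 45 to 46 in Kira8+Stattic, 37 to 46 in Kira8 and 42 to 46 in Stattic, and higher calls from 0 to 1 in Kira8+Stattic. Kira8+Stattic against Kira8 had 6 to 20 lower and 0 to 5 higher, Stattic against Kira8 had 6 to 20 lower and 0 to 1 higher, and the interaction had 20 to 45. A group left with 1 library is assumed to vary like the others. Scaling by library size alone moved the median of all genes by -0.15 in Kira8+Stattic and by -0.16 in Stattic against None; the members' medians were then -1.86 and -1.94.

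The replicate numbers share only a number. In deviations from group means, 13 same-numbered pairs of libraries correlated at -0.01 to 0.21, 7 of them over 0.1. Of 10 libraries, 9 correlated best with their own number. Kira8 and Stattic had 2 libraries each here, whose deviations mirror each other by construction. Many of these pairs thus repeat the same values, and the counts cannot show whether replicates were paired. With the replicate block, 38 interactions and 4 higher members in Kira8+Stattic against Kira8 were called, and the other counts of calls stayed as they were (46, 46 and 46 lower against None, 18 and 19 lower against Kira8).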

Other observations

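The mRNAs of the ribosome's own proteins did not share the fall of its assembly factors. Over 78 genes of cytosolic ribosomal proteins, taken by symbol pattern and trimmed of paralogs after values were seen, the median log2 change against None was 0.72 in Kira8+Stattic (members from 0.29 to 1.02), 0.13 in Kira8 (-0.36 to 0.49) and 0.76 in Stattic (0.19 to 1.05). These values are a description with no test, on the TMM scale. Many of these genes have near-identical processed pseudogenes, and the sources used here do not say how multiply mapping reads were counted, which leaves their counts uncertain.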
